A study of Homo sapiens with 6 samples.

Results

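The transcripts described here encode 10 receptor tyrosine kinases that have been linked to the migration of carcinoma cells: the FGF receptors FGFR1, FGFR2, FGFR3 and FGFR4, the HGF receptor MET, its relative MST1R (RON), the GAS6 receptor AXL, the collagen receptor DDR1 and the PDGF receptors PDGFRA and PDGFRB. They were taken by their symbols from the 20347 gene symbols measured, and all 10 were found. RNA-seq was made from PaTu8988t cells, an established line of human pancreatic ductal adenocarcinoma, to ask how the loss of SAMD1, a CpG island-binding repressor, alters gene expression. The Control group holds 3 replicates of cells that received the CRISPR vector (Lenti-CRISPR V2) with an unspecific guide RNA. The SAMD1 KO group holds 3 knockout lines obtained with guide RNAs against SAMD1. Single clones were selected with puromycin, and both groups were grown in DMEM with 5% fetal bovine serum. Each KO library comes from 1 single-cell clone, so that differences between the KO libraries include differences between clones. Nothing in the labels says that the Control replicates were separate cell pools. The p-values of single genes set the group difference against the spread within the groups. That spread pools Control replicates with KO clones, which can differ in how much they vary.

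Receptor tyrosine kinases span the plasma membrane once and signal from inside the cell after a ligand brings receptor chains together. FGF receptors bind fibroblast growth factors together with heparan sulfate or a klotho co-receptor and pass the signal through FRS2, GRB2 and the Ras-MAPK cascade. MET binds hepatocyte growth factor (HGF, scatter factor), MST1R binds macrophage stimulating protein (the product of MST1), AXL binds GAS6, DDR1 binds fibrillar and basement membrane collagens, and the PDGF receptors bind dimers of PDGF chains. In pancreatic carcinoma, MET, MST1R and AXL are known for their part in scattering, invasion and resistance to therapy, whereas the PDGF receptors are mostly found in stromal fibroblasts.

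SAMD1 is known to bind CpG islands that carry the motif GCGC, which is why the promoters of the 3 receptors that changed, and that of MET, which has as many of these motifs as MST1R, are shown here. The RefSeq promoter table (GRCh38.p14) held 9 of the 10 members, without FGFR1. For each of these 9, the 250 bases before the start of the Ensembl canonical transcript were read 5′ to 3′ on the strand of the gene. Capitals mark GCGC, which reads the same on both strands, and overlapping copies are each counted.
MST1R, chr3:49903874-49904123, minus strand: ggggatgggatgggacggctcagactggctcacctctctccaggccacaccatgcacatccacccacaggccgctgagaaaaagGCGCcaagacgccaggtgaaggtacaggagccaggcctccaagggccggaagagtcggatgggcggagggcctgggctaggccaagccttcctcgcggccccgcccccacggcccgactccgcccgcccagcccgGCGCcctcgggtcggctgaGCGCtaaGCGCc
FGFR4, chr5:177086665-177086914, plus strand: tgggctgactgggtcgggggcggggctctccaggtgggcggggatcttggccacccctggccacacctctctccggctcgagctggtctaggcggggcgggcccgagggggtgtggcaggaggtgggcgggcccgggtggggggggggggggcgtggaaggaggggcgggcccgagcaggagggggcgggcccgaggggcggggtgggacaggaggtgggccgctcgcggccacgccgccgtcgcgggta
PDGFRA, chr4:54229043-54229292, plus strand: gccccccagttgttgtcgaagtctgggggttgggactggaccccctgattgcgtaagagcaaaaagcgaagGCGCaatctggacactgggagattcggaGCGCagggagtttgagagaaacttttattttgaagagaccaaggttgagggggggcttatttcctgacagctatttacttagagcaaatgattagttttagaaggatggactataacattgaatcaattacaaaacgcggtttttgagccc
MET, chr7:116671946-116672195, plus strand: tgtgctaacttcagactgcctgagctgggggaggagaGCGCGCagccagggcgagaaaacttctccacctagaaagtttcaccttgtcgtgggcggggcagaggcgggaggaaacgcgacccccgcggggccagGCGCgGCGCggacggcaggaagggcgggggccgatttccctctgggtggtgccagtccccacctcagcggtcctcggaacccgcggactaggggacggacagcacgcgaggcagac
The MST1R promoter held 4 copies of GCGC and 20 CG dinucleotides. The FGFR4 promoter had no GCGC in this stretch but 24 CG dinucleotides. For PDGFRA, 2 copies and 8 CG were counted, and for MET 4 copies and 24 CG. Before another annotated start, PDGFRA had 4 copies and 25 CG, and FGFR4 had no GCGC and 2 CG. Among the promoters not printed, DDR1 had 7 copies, FGFR2 had 6 and FGFR3 had 5, while AXL and PDGFRB had none. Thus 6 of the 9 promoters held the motif, beside 70.5% of all 14406 promoters in the table that adjoin a canonical start and 84.8% of those of the 9784 tested genes among them. The 2 receptors that fell differ in this respect, 1 with and 1 without GCGC. Binding of SAMD1 to these sites was not analysed here.

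Between 35589477 and 45172216 reads per library were assigned to genes. SAMD1 itself had 2231, 2382 and 2299 normalized counts (reads divided by a size factor for each library) in Control and 874, 1082 and 825 in the SAMD1 KO clones, so transcript remained in every clone at a mean of 0.402 of the Control level. This was a log2 fold change of -1.32 with a standard error of 0.10 (limma, adjusted p = 0.000724). Of 9 epithelial markers, 7 were tested, and the keratin genes KRT7 and KRT18 rose in SAMD1 KO. KRT7 had 34.3, 26.4 and 29.8 normalized counts in Control and 78.1, 90.7 and 83.6 in SAMD1 KO, a log2 fold change of 1.46 (limma, adjusted p = 0.00392). KRT18 had 29771, 29730.2 and 29200.3 against 45210.1, 50795 and 33001, a log2 fold change of 0.52 (limma, adjusted p = 0.0598). With 1 library left out KRT18 passed only without KO 3, the values running from 0.39 to 0.70, and it was 0.48 with the regional shift described below removed. The part of this marker shift in the receptor results was not tested. KRT8 had at least 32902 normalized counts in each library and EPCAM had 422 to 626, and neither passed. KRT19 was at 0 in all 6 libraries. CDH1 stood at 24.0 to 45.8 normalized counts. Of the markers of other cell types, the fibroblast genes DCN, LUM and FAP and the T cell gene CD3E were at 0 throughout, and THY1 and COL1A2 had at most 1 read in a library. Of 3 tested fibroblast markers none passed the cut-off, and the summed level of the 8 fibroblast markers ranged from 568 to 579 in Control and from 475 to 809 in SAMD1 KO. The 5 endothelial markers summed to 77.8 to 85.9 in Control and 33.6 to 85.4 in SAMD1 KO, and the 4 immune markers, nearly all of it CD68, to 357 to 377 and 251 to 334. As in any bulk sample, fewer cells of a type and less RNA per cell cannot be told apart.

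Loss of SAMD1 went along with lower FGFR4 and MST1R, higher PDGFRA, and no call for AXL, MET and FGFR1. AXL, MET and FGFR1 had the highest levels of the 10 members per kb of the canonical transcript. Per kb of the union of all annotated exons, MST1R was above FGFR1 in Control. A gene passed the cut-off when its log2 fold change was beyond 0.5 in either direction and its unadjusted p in limma was below 0.01. Genes needed a mean of at least 10 normalized counts over the 6 libraries to be tested, which 9 of the 10 members reached and PDGFRB did not. PDGFRA was the only member that passed upward, where 5.77% of all 12773 tested genes did, and it reached the mean of 10 only through the KO group. FGFR4 and MST1R passed downward, where 2.08% of all tested genes did. The median log2 fold change was 0.14 over the 9 tested members and -0.01 over all tested genes. The counts and medians of the other gene lists below are to be read beside these same values for all tested genes. In 8 of the 9 members the Control and KO values did not overlap, beside 37.8% of all tested genes, and MET was the exception.

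**Figure D1:**
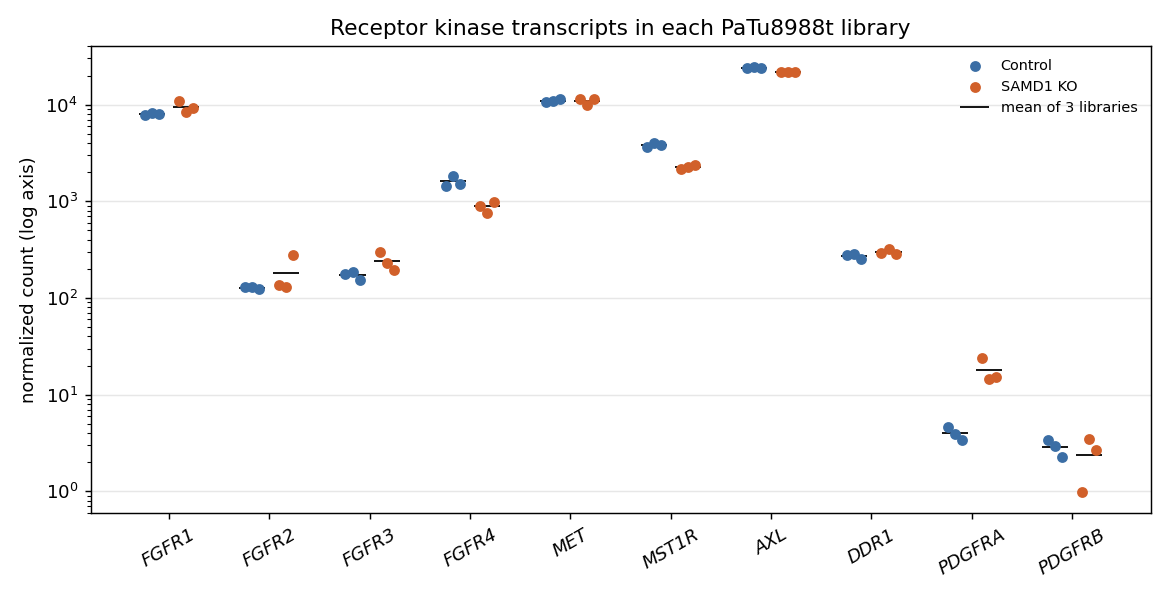
Normalized counts (log axis) of the 10 receptor kinases in 3 Control (blue) and 3 SAMD1 KO (orange) libraries, with a black line at the mean of each group. MST1R and FGFR4 lie lower and PDGFRA lies higher in each of the KO clones, AXL and MET are nearly level, and FGFR2 stands apart in 1 clone.

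**Figure D2:**
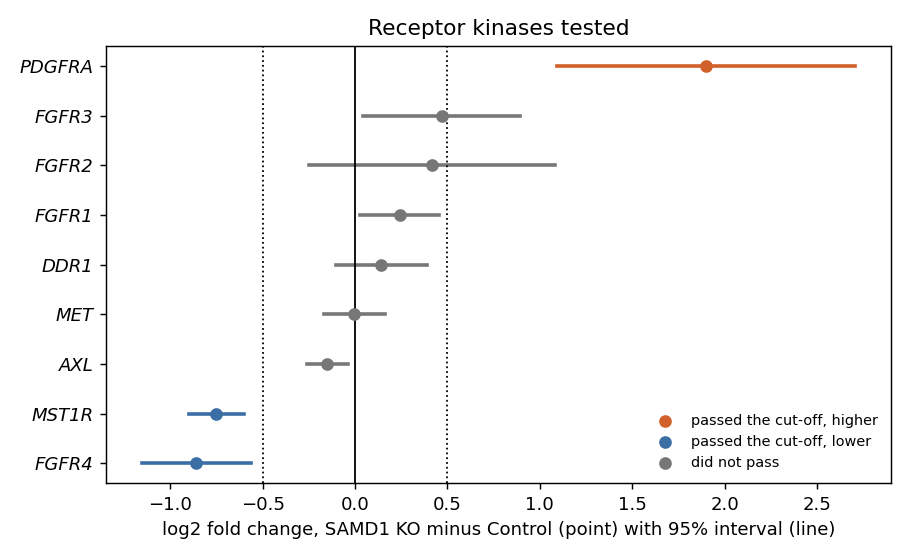
Log2 fold change of SAMD1 KO minus Control for the 9 tested receptors (points) with its 95% interval from limma (lines); dotted lines mark 0.5 in both directions. PDGFRA at 1.90 is on the right and MST1R at -0.75 and FGFR4 at -0.86 are on the left, and the interval of MET runs from -0.17 to 0.16.

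Scaled to length, the receptors spanned about 4 orders of magnitude. Counts per kb of the canonical transcript in Control were highest for AXL (5106 ± 57.4, SD, n = 3), followed by MET (1603 ± 57.5), FGFR1 (1406 ± 34.3), MST1R (802 ± 42.5), FGFR4 (519 ± 67.0), DDR1 (70.9 ± 4.66), FGFR3 (39.9 ± 3.83), FGFR2 (27.5 ± 0.829), PDGFRA (0.623 ± 0.0897) and PDGFRB (0.506 ± 0.10). Only PDGFRA and PDGFRB overlapped with their neighbour in this order. In SAMD1 KO, FGFR1 (1672 ± 218) and MET (1603 ± 127) overlapped, and so did FGFR3 (56.0 ± 12.8) and FGFR2 (39.1 ± 18.0), while PDGFRA (2.81 ± 0.793) no longer overlapped with PDGFRB (0.418 ± 0.222). The order depends on the length used: per kb of the union of all annotated exons, which is 17.2 kb for FGFR1 against 5.70 kb for its canonical transcript, FGFR1 fell behind MST1R in Control (466 against 728) but not in SAMD1 KO (554 against 433). Among 58 receptor tyrosine kinases, AXL had the highest mean level per kb of exon union in Control, with 4691, followed by EPHA2 with 3957. In SAMD1 KO their means by this length were 4232 and 4203, and by this length EPHA2 was above AXL in KO 1 and KO 2. Per kb of the canonical transcript, the SAMD1 KO means lay further apart, at 4606 for AXL and 4410 for EPHA2.

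The FGF receptors did not move as a block. FGFR4, the family member that prefers FGF19 with the co-receptor klotho beta, had 1452, 1841 and 1525 normalized counts in Control and 901, 764 and 991 in SAMD1 KO. All clones lay below all Control libraries. Group means were 1606 ± 207 and 885 ± 115 (SD, n = 3), so FGFR4 fell with a log2 fold change of -0.86 and a standard error of 0.13 (limma, adjusted p = 0.00634). FGFR1, which is the main receptor for FGF2 in mesenchymal cells, had 7833, 8219.7 and 7978 normalized counts in Control and 10895, 8466 and 9218 in SAMD1 KO. Every clone was above the Control libraries, with KO 1 well above the other clones, but the log2 fold change of 0.24 with a standard error of 0.09 did not pass (limma, adjusted p = 0.128), and without KO 1 it was 0.14. LETM2 overlaps FGFR1 on the opposite strand and was itself expressed at a mean of 1617 normalized counts. The library kit keeps the strand, but whether counting used it was not given in the sources used here.

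For FGFR3, the Control libraries had 175, 186 and 153 normalized counts and the SAMD1 KO clones 301, 230 and 192. The groups were separate, although KO 3 lay close to Control. The log2 fold change was 0.47 with a standard error of 0.18 (limma, adjusted p = 0.134), and without KO 3 it was 0.62 and passed the cut-off (limma, adjusted p = 0.0496). Without KO 1 it was 0.30 and did not pass (limma, adjusted p = 0.189). FGFR2, which exists as an epithelial and a mesenchymal splice form that gene counts do not resolve, had 129, 129 and 123 normalized counts in Control and 135, 130 and 277 in SAMD1 KO. KO 3 held more than the others, while KO 1 and KO 2 were next to Control. Its log2 fold change of 0.42 with a standard error of 0.28 did not pass (limma, adjusted p = 0.365), and without KO 3 it was 0.07.

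The make-up of the FGF receptor pool shifted with these differences. Per kb of exon union, FGFR4 supplied 37.7%, 42.3% and 38.7% of the summed FGFR1 to FGFR4 level in Control and 21.0%, 22.5% and 25.9% in SAMD1 KO. FGFR1 supplied 56.9%, 52.8% and 56.6% in Control and 71.2%, 69.8% and 67.3% in SAMD1 KO. For both, the groups were separate. The mean share of FGFR4 differed by -16.4 percentage points and that of FGFR1 by 14.0, each with p = 0.1 in a two-sided exact permutation test, the smallest that 3 against 3 libraries can give (0.133 after Benjamini-Hochberg adjustment over the 4 receptors). FGFR3 shares were 4.20% ± 0.324 and 6.22% ± 1.08 (SD, n = 3, exact permutation p = 0.1), and FGFR2 shares 0.804% ± 0.0510 and 1.21% ± 0.557 (SD, n = 3, exact permutation p = 0.2). Per kb of the canonical transcript, a length chosen after the data were seen, the mean share of FGFR4 was 26.0% in Control and 14.0% in SAMD1 KO, and that of FGFR1 was 70.6% and 81.4%. Shares sum to 100%, so they are not independent of each other.

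**Figure D3:**
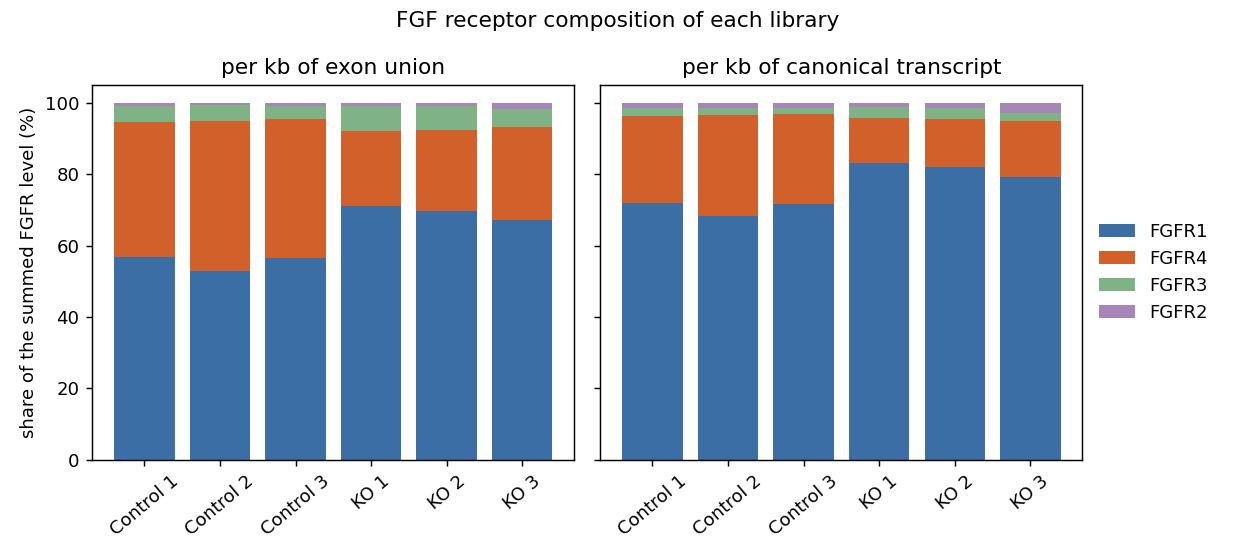
Share (%) of each FGF receptor in the summed level of FGFR1 to FGFR4 for every library, per kb of exon union (left) and per kb of the canonical transcript (right). The FGFR4 segment is smaller in each KO clone than in each Control library under both lengths, and FGFR1 fills most of the difference.

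Of 18 FGF ligands, 5 were tested, and 1 of them fell. FGF1, a ligand that binds all FGF receptors, had 711, 703 and 709 normalized counts in Control and 315, 318 and 434 in SAMD1 KO, with a log2 fold change of -1.01 and a standard error of 0.13 (limma, adjusted p = 0.00450). FGF2, which signals mainly through FGFR1, had 745, 674 and 743 against 502, 646 and 408. Its log2 fold change of -0.50 did not pass (limma, adjusted p = 0.0883), but was -0.67 and passed without KO 2. FGF5 had 82.4, 85.1 and 72.2 against 102, 124 and 235, with KO 3 highest. Its log2 fold change of 0.84 did not pass (limma, adjusted p = 0.111), but was 1.09 and passed without KO 1. Without KO 3 it was 0.49. FGF17 and FGF18 stayed below 25 normalized counts and did not pass. The 13 other FGF genes, FGF19 among them with at most 6.30 normalized counts, were below the mean of 10. Over the 5 tested ligands the median log2 fold change was 0.42.

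Of 10 FGF co-receptors and binding proteins, 7 were tested, with 1 lower and none higher. FLRT1, a membrane protein that binds FGF receptors, went from 34.3, 43.1 and 36.7 normalized counts to 19.8, 23.3 and 16.2, a log2 fold change of -0.92 (limma, adjusted p = 0.0462). Leaving out 1 library kept the call only without KO 2, and the values ran from -1.04 to -0.79. KLB, the klotho beta that FGFR4 uses for FGF19, had 8.01, 8.81 and 5.73 against 16.8, 19.9 and 3.60 and did not pass. FGFRL1, an FGF receptor without a kinase domain, did not pass either, with 1216, 1269.99 and 1099.7 normalized counts against 1187, 1330.5 and 745. FLRT3 had 18.3, 29.4 and 18.3 in Control, and 12.9, 306 and 40.5 in the clones. This was the widest scatter between clones among these genes, with KO 2 far above the others. FGFBP3, which releases FGFs from the matrix, had a log2 fold change of 0.45 (limma, adjusted p = 0.221).

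MET and MST1R, which share their domain structure, differed from each other in their response. MST1R had 3644, 4045 and 3788 normalized counts in Control and 2168, 2272 and 2380 in SAMD1 KO. The clones were close to each other and all below Control. Group means were 3826 ± 203 and 2273 ± 106 (SD, n = 3), so MST1R fell with a log2 fold change of -0.75 and a standard error of 0.06 (limma, adjusted p = 0.000857). MET had 10617, 10814 and 11373 normalized counts in Control and 11355, 9934 and 11509 in SAMD1 KO. The groups overlapped fully, and the 95% interval of its log2 fold change ran from -0.17 to 0.16, so a change past the cut-off of 0.5 lies outside it. Per kb of the canonical transcript, MET was 2.00 ± 0.119 times MST1R in Control and 3.37 ± 0.303 times in SAMD1 KO (SD, n = 3), with no overlap between the groups.

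Of the 12 genes of the HGF and MST1 axis, 7 were tested, with 2 higher and none lower, and a median log2 fold change of -0.14. HGF had no reads in any library, and a count of 0 allows up to 3 reads in a library, so the ligand of MET was not detected in these cells at this depth. PLXNB1, a semaphorin receptor that associates with MET and MST1R, had 265, 286 and 277 normalized counts in Control and 551, 854 and 562 in SAMD1 KO. It rose in all clones, with a log2 fold change of 1.21 and a standard error of 0.17 (limma, adjusted p = 0.00565). MST1, the ligand gene of MST1R, had 66.3, 71.4 and 51.5 against 117, 151 and 86.3, a log2 fold change of 0.87 (limma, adjusted p = 0.0567). It met the unadjusted cut-off, but held it only without KO 3 when 1 library was left out, with values from 0.67 to 1.08. MST1 has near-identical copies in the genome, and its counts are uncertain to that extent. SPINT2, an inhibitor of the proteases that activate HGF and the MST1 product, was abundant, with 18370.4, 18384 and 17408 against 13577, 12019 and 16432, and its log2 fold change of -0.38 was within the cut-off (limma, adjusted p = 0.0632). The activating proteases HPN and ST14 were at 0 or below 11 normalized counts.

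Relative to its mean, AXL varied least of the 10 receptors within each group. It had 23880.4, 24392 and 23983 normalized counts in Control and 21581, 21847.5 and 21749 in SAMD1 KO. The groups were separate with a mean ratio of 0.902, and the standard deviations were 271 and 135. On the log2 scale the difference was -0.15 with a standard error of 0.05 and a 95% interval from -0.26 to -0.04 (limma, adjusted p = 0.0830), far within the cut-off of 0.5. DESeq2 on the recovered reads gave an adjusted p of 0.0102 with a log2 fold change of -0.15.

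None of the 4 TAM ligands and related receptors passed the cut-off, and their median log2 fold change was 0.21. PROS1, protein S, which activates TYRO3 and MERTK but binds AXL poorly, had 3211, 3206 and 3434 normalized counts in Control and 4477, 4243 and 4154 in SAMD1 KO. All clones were above Control, but the log2 fold change of 0.39 stayed under 0.5 (limma, adjusted p = 0.00628). GAS6, the ligand of AXL, had 1624, 1731 and 1507 against 1641, 2113 and 1803 (limma, adjusted p = 0.270). MERTK had a log2 fold change of 0.23 and TYRO3 of 0.13, and neither passed.

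**Figure D4:**
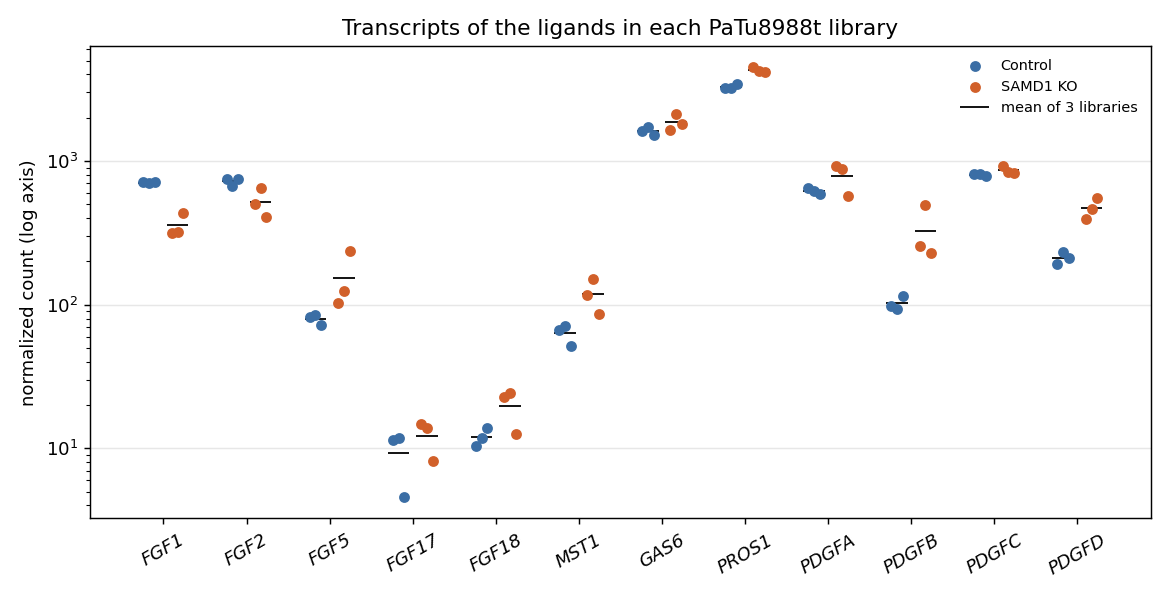
Normalized counts (log axis) of the ligand genes that were tested, in 3 Control (blue) and 3 SAMD1 KO (orange) libraries, with a black line at the group mean. FGF1 lies lower and PDGFB and PDGFD lie higher in each of the KO clones.

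DDR1 had 277, 287 and 252 normalized counts in Control and 292, 322 and 287 in SAMD1 KO. The ranges only just missed each other, and the log2 fold change of 0.14 with a 95% interval from -0.10 to 0.39 did not pass (limma, adjusted p = 0.401). Its relative DDR2 had 169, 189 and 198 against 178, 116 and 277, with KO 2 lowest and KO 3 highest. Among DDR2 and the 7 collagen genes, 6 were tested, with 1 lower and none higher, and their median was 0.18. COL4A2, a chain of basement membrane collagen, had 81.2, 87.1 and 65.3 normalized counts in Control and 15.8, 26.8 and 6.30 in SAMD1 KO, a log2 fold change of -2.38 with a standard error of 0.47 (limma, adjusted p = 0.0183). COL5A1, a chain of collagen V, had 646, 635 and 594 against 1852, 1554 and 689.9, and COL3A1 had 111, 113 and 109 against 279.8, 398 and 130.4. In both genes KO 3 was close to Control. Their log2 fold changes of 1.01 and 1.13 did not pass (limma, adjusted p = 0.0911 and 0.0881), but without KO 3 they were 1.44 and 1.58 and passed. With 1 library left out, the values ran from 0.73 to 1.44 for COL5A1 and from 0.78 to 1.58 for COL3A1.

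PDGFRA was near the limit of detection in Control. It had 4, 4 and 3 reads there and 24, 17 and 17 reads in SAMD1 KO, which are 4.58, 3.91 and 3.44 against 23.7, 14.7 and 15.3 normalized counts. Every clone was above every Control library, with KO 1 the highest. Another annotated protein-coding gene overlaps PDGFRA on the same strand and was not among the gene symbols measured. How reads shared by both genes were counted was not given in the sources used here. Its part in the PDGFRA counts was not tested. The log2 fold change on log2(normalized count + 1) was 1.90 with a standard error of 0.34 (limma, adjusted p = 0.0139), and 0.98 with a pseudocount of 10 in place of 1. From the summed reads, the KO level was 4.45 times the Control level, with a 95% interval from 2.31 to 9.41 that covers counting error only. Without KO 1, PDGFRA fell below the mean of 10 and was not tested. Because PDGFRA reached that mean only through the KO group, neither its p-value nor this interval is independent support for the rise. PDGFRB, the receptor for PDGF-BB and PDGF-DD, had 3, 3 and 2 reads in Control and 1, 4 and 3 in SAMD1 KO, so no difference was detectable at this depth. Of the 8 fibroblast markers in the same libraries, DCN, LUM and FAP were at 0, and THY1 and COL1A2 were at 0 or 1 read. ACTA2 had 405 to 418 normalized counts in Control and 328 to 368 in SAMD1 KO, COL1A1 had 48.9 to 52.7 and 15.3 to 41.5, and COL3A1, given above, was higher in the clones without passing the main cut-off. The part of these markers in the PDGFRA result was not tested.

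All 4 PDGF ligand genes were expressed, and 2 of them rose. PDGFD had 192, 232 and 212 normalized counts in Control and 396, 464 and 550.5 in SAMD1 KO, a log2 fold change of 1.14 with a standard error of 0.15 (limma, adjusted p = 0.00395). PDGFB had 98.4, 93.9 and 116 in Control and 255, 496 and 229 in SAMD1 KO, a log2 fold change of 1.58 with a standard error of 0.28 (limma, adjusted p = 0.0138). Both were higher in 3 of 3 clones, and KO 2 had the most PDGFB. PDGFA had 646, 620.3 and 588 against 916, 880.4 and 570.3. KO 3 lay below Control, and its log2 fold change of 0.32 did not pass (limma, adjusted p = 0.271), but without KO 3 it was 0.54 and passed. Without KO 1 or KO 2 it was 0.20 or 0.23. PDGFC had a log2 fold change of 0.10 and did not pass. The median over the 4 ligands was 0.73. Per kb of the canonical transcript, PDGFB had a mean level of 27.5 in Control and 87.7 in SAMD1 KO, beside 0.623 and 2.81 for PDGFRA.

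Downstream of the receptors, 22 of 23 adaptors and effectors were tested, with 1 higher and none lower and a median log2 fold change of 0.04. GAB2, a docking protein for PI3K and SHP2, had 574, 609.6 and 584 normalized counts in Control and 816, 828 and 1147 in SAMD1 KO, a log2 fold change of 0.64 (limma, adjusted p = 0.0250). Without KO 3 it was 0.48, under the cut-off. STAT3 and PTPN11 (SHP2) were lower by small amounts that stayed within the cut-off, with log2 fold changes of -0.26 (limma, adjusted p = 0.0132) and -0.25 (limma, adjusted p = 0.0149). Of 8 genes for receptor degradation, dephosphorylation and shedding, 7 were tested, and CBLB, a ubiquitin ligase for activated receptors, was the 1 that rose. It had 251, 264 and 296 against 352, 419 and 427 normalized counts, a log2 fold change of 0.56 (limma, adjusted p = 0.0246), which without Control 1 was 0.51 and did not pass. CBL and PTPN1 had log2 fold changes of -0.26 and -0.22 and did not pass. The median of this list was -0.18.

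Of 14 genes for feedback on the Ras-MAPK pathway or for transcriptional responses to it, 13 were tested. Of these, 4 were higher and none lower, with a median log2 fold change of 0.25. Over all tested genes, 5.77% were higher and 2.08% lower. ETV1, a PEA3 family transcription factor, had 851, 921 and 912 normalized counts in Control and 1378, 1358 and 1749 in SAMD1 KO, a log2 fold change of 0.73 (limma, adjusted p = 0.00653). IL17RD (SEF), an inhibitor of FGF signalling, had 997, 1035 and 1084 against 1476, 1700.2 and 1374, a log2 fold change of 0.54 (limma, adjusted p = 0.0104). Without KO 2 it was 0.46, and with the regional shift described below removed it was 0.38, both under the cut-off. The Sprouty genes SPRY4 and SPRY1, whose products dampen signalling by FGF receptors, had log2 fold changes of 0.91 (limma, adjusted p = 0.0498) and 0.72 (limma, adjusted p = 0.0464). SPRY4 had 3082, 3142 and 3047 normalized counts in Control and 7743, 3748 and 6678 in SAMD1 KO, and among the fits without 1 library it passed only without KO 2, with values from 0.70 to 1.22. SPRY1 did not pass without Control 1, Control 2 or Control 3, at 0.76, 0.78 and 0.63. ETV5 had a log2 fold change of 0.35 (limma, adjusted p = 0.00486) and stayed within the cut-off. DUSP6, the phosphatase that is often read as a marker of ERK activity, had 4964, 5471 and 5073 against 5819, 5702 and 5882, a log2 fold change of 0.17 (limma, adjusted p = 0.0895), and DUSP4 and DUSP5 did not pass. ERK activity itself was not measured here.

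Of 48 other receptor tyrosine kinases, 23 were tested, with 2 higher and 1 lower and a median log2 fold change of 0.08. Over all tested genes, 5.77% were higher and 2.08% lower. EPHB2, an ephrin receptor, had 925, 967 and 966 normalized counts in Control and 1509.9, 1638 and 1952 in SAMD1 KO, a log2 fold change of 0.83 (limma, adjusted p = 0.00312). FLT3, a receptor of blood progenitors that reached the mean of 10 only through the KO group, had 10.3, 4.89 and 8.02 against 33.6, 22.5 and 17.1, a log2 fold change of 1.54 (limma, adjusted p = 0.0412). Because of that filter, its p-value is not independent support for the rise. Among the fits without 1 library, FLT3 passed only without Control 1 or KO 3, and the values ran from 1.28 to 1.76. STYK1, a kinase without a known ligand, had 85.8, 117 and 91.6 against 30.7, 40.6 and 35.1, a log2 fold change of -1.44 (limma, adjusted p = 0.00536). IGF1R, the receptor for insulin-like growth factors, had a log2 fold change of 0.31 (limma, adjusted p = 0.0248), within the cut-off.

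Since each KO library is 1 clone, each receptor was set beside the median of its 40 nearest tested genes on the chromosome, as the log2 difference from the Control mean. For FGFR2, KO 3 stood at 1.12 and its neighbours at 0.26, whereas the neighbours in KO 1 and KO 2 were at -0.40 and -0.38 while FGFR2 itself was at 0.09 and 0.04. The clones thus differed in the median of the neighbouring genes as well as in FGFR2. With this shift removed, FGFR2 had a log2 fold change of 0.59 and passed the cut-off (limma, adjusted p = 0.0329). For MST1R, the clones were at -0.82, -0.75 and -0.68 and their neighbours at 0.23, 0.32 and -0.01, and its fold change was -0.93 with the shift removed. FGFR4 was at -0.83, -1.06 and -0.69, with neighbours at -0.08, -0.33 and -0.05, and its fold change was -0.70 once the shift was removed. AXL differed by about the same amount in each clone (-0.16, -0.14 and -0.15), with neighbours at -0.02, 0.17 and 0.37, and its fold change was -0.32 with the shift removed (limma, adjusted p = 0.0515). FGFR3 was at 0.81, 0.42 and 0.17, with neighbours at -0.03, 0.12 and -0.18. Its fold change was 0.51 with the shift removed and did not pass (limma, adjusted p = 0.0741). The neighbours of PDGFRA, DDR1, MET and FGFR1 lay between -0.10 and 0.06 in each clone. Genomic copy number was not measured here.

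**Figure D5:**
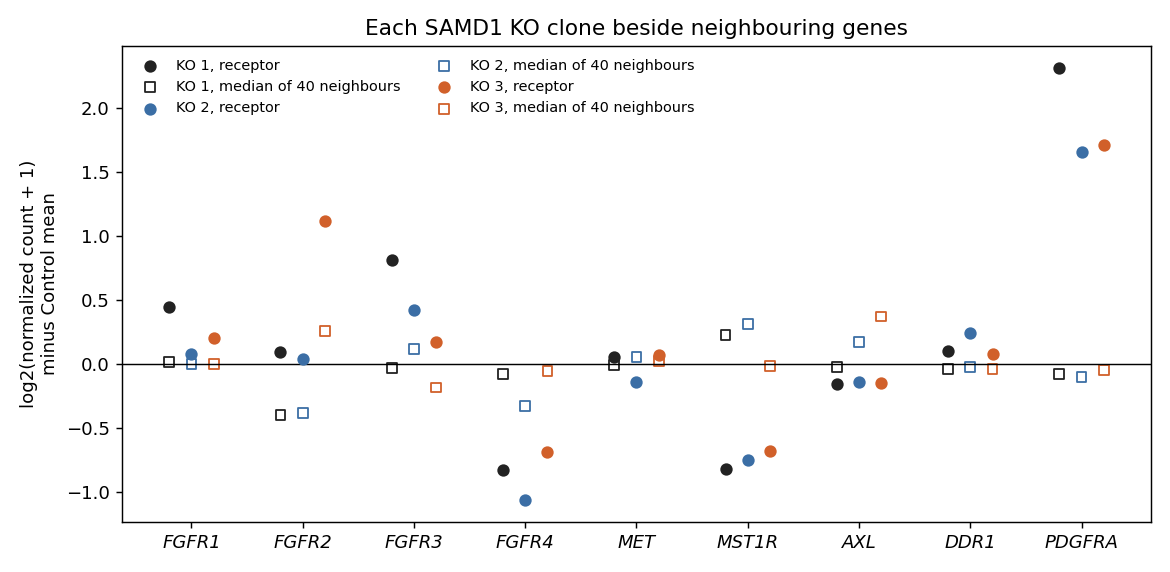
Difference from the Control mean in log2(normalized count + 1) for each tested receptor (filled points) and the median of its 40 nearest tested genes (open squares), for KO 1 (black), KO 2 (blue) and KO 3 (orange). MST1R and FGFR4 lie below their neighbours in every clone, and the neighbours of FGFR2 are split between the clones.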

How the data were processed

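RNA-seq of polyadenylated RNA (TruSeq Stranded mRNA kit) from 3 Control and 3 SAMD1 KO libraries of PaTu8988t cells was analysed. Per the study's methods, the authors mapped reads with RNA-STAR against GenCode 43 and tested genes with DESeq2; the submitters' processing notes name hg38, featureCounts and DESeq2. The signal that the authors deposited is the normalized count, meaning that the reads of a gene were divided by the size factor of their library. All values (100%) were whole multiples of 1 step within a tolerance of 0.05, so whole reads were recovered: 35589477 to 45172216 per library. At this depth the number of libraries limits the precision, except for genes with few reads. A deposited table of the authors' own comparison (fold changes and p-values) was not used. No sample column was left out (0 columns).

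The main test was limma 3.58.1 (lmFit, eBayes with trend, two-sided), run in R 4.3.3 with 1 added to each normalized count before taking log2; 12773 genes reached the minimum mean of 10, and fold changes of low genes are understated on this scale. Benjamini-Hochberg adjustment covered the whole set of genes tested. A call needed a log2 fold change beyond 0.5 and p below 0.01, the cut-off of the study. edgeR 4.0.16 (quasi-likelihood) and DESeq2 1.42.0 on the recovered reads were alternatives. Counts were simulated with 200 of 12773 genes changed 2-fold in this comparison. Of these, limma recovered 185, edgeR 185 and DESeq2 181, with 41, 37 and 28 unchanged genes called. The simulation gave Control and KO libraries the same spread for a gene. Its figures therefore do not cover genes whose KO clones scatter more than Control, such as FGFR2. Shares of FGF receptors were compared with two-sided exact permutation tests (SciPy). Positions, exon lengths and canonical transcripts came from GENCODE 44 (GRCh38), with 99.3% of the tested genes placed. All members were named, as were, of each pathway list, the genes that passed the cut-off, up to 3 tested genes with the smallest p, and the ligands. Other genes named (KLB, FGFRL1, TYRO3, DUSP4, DUSP5, DUSP6, EPHA2, DDR2, HPN, ST14, LETM2 and the cell type markers) were picked with their values in view. 1 marker gene is not reported here. The members and lists were chosen with earlier results of these data known. The alternatives were pseudocounts of 0.1 and 10, no filter, a mean of at least 50, scaling to the 75th percentile, a replicate block, each library left out, both count tools, and removal of the regional shift (median of 40 neighbours).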

Additional observations from a re-analysis of the deposited data

How the results depend on the processing

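FGFR4 and MST1R were the members called lower under each alternative run. The count of members called higher, 1 in the main test, was 0 with a mean of at least 50, where PDGFRA was not tested, and 2 with the regional shift removed, which added FGFR2. It ranged from 0 to 2 with 1 library left out: 0 without KO 1, where PDGFRA was not tested, and 2 without KO 3, which added FGFR3. MET, at a log2 fold change near 0, changed sign: it was 0.027 with 75th percentile rescaling, 0.0049 in edgeR and 0.0010 in DESeq2, and -0.042 to 0.065 with 1 library left out. The FGFR share differences kept their sign under each length with all 6 libraries, and per kb of exon union with any 1 library left out; that of FGFR2, 0.41 percentage points, was 0.092 without KO 3. Over all tested genes, 266 were called lower, and 177 to 369 with 1 library left out, with the fewest without Control 2. The rescaling moved the median of all genes from -0.01 to 0.02.

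Same-numbered Control and KO libraries deviated with correlations of 0.039, 0.134 and 0.032, beside -0.074 to 0.036 for libraries with unlike numbers. The same-numbered values were weak but all positive, so they do not settle whether the replicate numbers pair the libraries. With a replicate block, 725 genes were called higher and 259 lower, beside 737 and 266 without it, and the members called stayed at 1 higher and 2 lower; among the other genes named, FLRT1 and SPRY1 lost their call under the block and COL5A1 gained one. COL3A1 and COL5A1 passed in both edgeR and DESeq2, FGF5 passed in DESeq2, FLRT1 did not pass in DESeq2, and COL5A1 also passed with the regional shift removed. Precision is limited by the few counted reads for PDGFRA and PDGFRB, and by having 3 libraries a group for the other members. Whether the gene that overlaps PDGFRA lowered its count was not tested.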
